A study of Homo sapiens with 3 samples.

Results

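TRPS1 and its paralogs GATA2, GATA3, GATA4, GATA5 and GATA6 were described by the histone marks called within their annotated spans and in the 100 kb on either side. The 6 genes were listed by name and selected on the number and position of their peaks in these same lists, out of 19974 protein-coding genes on chromosomes 1 to 22 and X, so their values are given as a description and without a test. Chromatin came from HCC1599 cells, a cultured line of triple-negative breast cancer that the series describes as positive for MARCO-TST, a transcript of the scavenger receptor gene MARCO. The series held 3 samples, which were an H3K27ac immunoprecipitate, an H3K4me3 immunoprecipitate and an input without antibody, all of the same line, for which the labels give no treatment. Each mark had 1 library, so the spread between repeats is unknown and no test was made. The input entered through the authors' peak calling and was otherwise not analysed here.

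GATA factors are transcription factors that bind DNA letters GATA through zinc fingers of a shared type. GATA2 is known for its work in blood progenitors, GATA3 in T cells and in the luminal cells of the breast, and GATA4, GATA5 and GATA6 in heart and endoderm. TRPS1 carries a GATA-type zinc finger beside fingers like those of Ikaros, acts mainly as a repressor, and is used in pathology as a marker of breast carcinoma, triple-negative tumours included. H3K27ac is an acetylated histone mark of active promoters and enhancers, and H3K4me3 is a methylated mark found mostly at promoters.

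The H3K27ac list gave 72894 peaks and the H3K4me3 list 32043 on the chromosomes used, with a score for each peak that the authors deposited without naming its unit. The score is used here only to rank peaks within a list. It starts at 30 and piles up at 3100, a value shared by 3.5% of H3K27ac peaks and 33.4% of H3K4me3 peaks, which it does not rank among themselves. Read depth is unknown, so a gene without a peak is a gene where none was called. The marks at the labelled epithelial line's defining genes were as follows: all 5 epithelial genes tested (EPCAM, CDH1, KRT8, KRT18 and KRT19) had both marks within 1 kb of an annotated end, as 57.6% of protein-coding genes did, while none of the 10 fibroblast, T cell and macrophage genes tested had both there. Among these 10, COL1A1 had H3K4me3 at an end, with a score of 2138, and H3K27ac inside its span, with a score of 766. CD14 had H3K4me3 only at an end (score 113) and LUM H3K27ac only (score 62.0). Of 4 basal genes, KRT5 and EGFR had both, KRT14 had H3K27ac only, with a score of 47.3, and TP63 had neither at an end. Of 3 luminal hormone genes, FOXA1 had both, PGR had H3K4me3 only and ESR1 had neither at an end.

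TRPS1, the longest gene of the group, held the most peaks and the greatest covered length of both marks. GATA2, GATA3 and GATA6 had fewer peaks, and each had a transcript start inside both marks. GATA4 and GATA5 had no peak within their spans. TRPS1 held 24 H3K27ac peaks and 5 H3K4me3 peaks, against 7 and 5 over the spans of all 5 GATA genes together. GATA3 held 4 H3K27ac and 3 H3K4me3 peaks. GATA2 held 2 H3K27ac peaks and 1 H3K4me3 peak, and GATA6 held 1 of each. Thus 4 of the 6 genes had both marks in the span and 2 had neither, where 66.5% of protein-coding genes had both and 20.5% had neither; at least 1 H3K27ac peak lay in the span of 71.5% of protein-coding genes and at least 1 H3K4me3 peak in that of 74.5%. The median protein-coding gene held 1 peak of each mark.

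**Figure D1:**
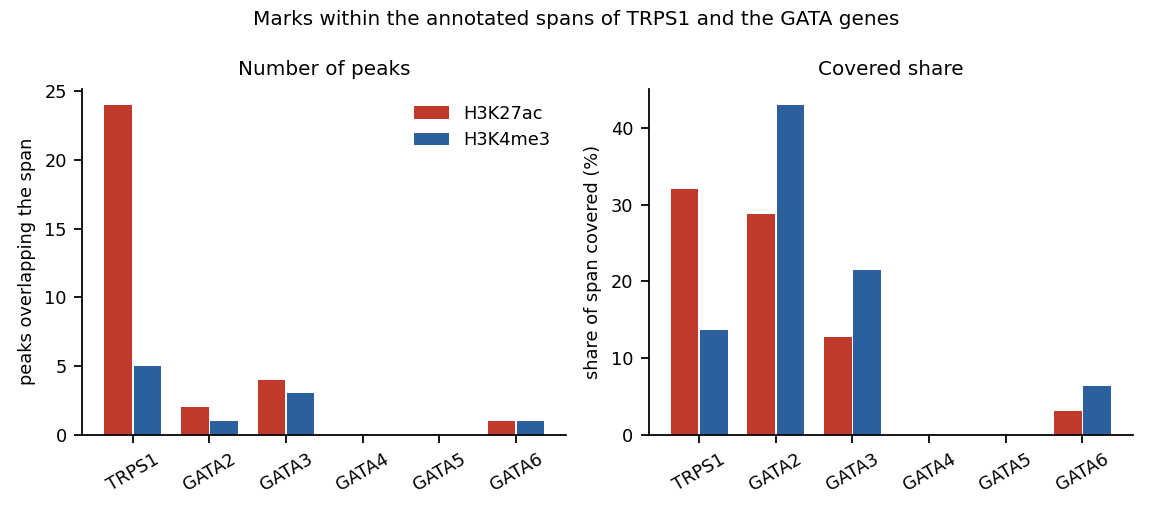
Left, number of H3K27ac (red) and H3K4me3 (blue) peaks overlapping the annotated span of each gene; right, share of the span covered by each mark in percent, with 1 library per mark and no error bars. TRPS1 stands apart in the number of H3K27ac peaks (24), GATA2 has the highest H3K4me3 share (43.0%), and GATA4 and GATA5 are at 0.

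The sequences before the starts of GATA2, GATA3 and GATA6 are shown because which of these starts lay inside a peak is the result that separates them. Each is the 250 bases before a transcript start in RefSeq (GRCh38.p14), written 5′ to 3′ along the gene with CG dinucleotides in capitals, since CG-rich promoters are those that most often carry H3K4me3. Starts are numbered in the direction of transcription. RefSeq starts were used for 3 of the 6 genes, and no sequence is shown for TRPS1, GATA4 and GATA5.
GATA3 start 1, chr10:8045083-8045332 on the plus strand: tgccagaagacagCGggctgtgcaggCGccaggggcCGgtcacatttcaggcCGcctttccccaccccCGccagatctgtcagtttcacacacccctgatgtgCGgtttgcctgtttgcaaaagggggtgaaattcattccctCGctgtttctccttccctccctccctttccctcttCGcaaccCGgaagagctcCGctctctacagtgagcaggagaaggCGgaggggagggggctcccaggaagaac
GATA3 start 2, chr10:8049604-8049853 on the plus strand: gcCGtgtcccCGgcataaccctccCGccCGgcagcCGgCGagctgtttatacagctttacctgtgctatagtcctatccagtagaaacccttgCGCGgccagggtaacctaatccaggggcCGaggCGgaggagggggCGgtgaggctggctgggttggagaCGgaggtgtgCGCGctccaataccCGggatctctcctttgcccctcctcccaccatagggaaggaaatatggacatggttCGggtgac
GATA3 start 4, chr10:8053391-8053640 on the plus strand: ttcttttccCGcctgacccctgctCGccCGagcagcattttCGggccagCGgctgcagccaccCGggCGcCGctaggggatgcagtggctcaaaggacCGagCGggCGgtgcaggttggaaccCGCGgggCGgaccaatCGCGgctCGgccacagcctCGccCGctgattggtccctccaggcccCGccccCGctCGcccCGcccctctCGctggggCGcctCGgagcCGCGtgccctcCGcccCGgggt
GATA3 start 6, chr10:8060207-8060456 on the plus strand: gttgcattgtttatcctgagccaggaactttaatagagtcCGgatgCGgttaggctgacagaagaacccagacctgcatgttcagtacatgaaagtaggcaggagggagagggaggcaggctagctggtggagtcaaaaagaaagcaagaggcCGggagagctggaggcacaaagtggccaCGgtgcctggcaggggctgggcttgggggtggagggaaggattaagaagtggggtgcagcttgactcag
GATA2 start 1, chr3:128493202-128493451 on the minus strand: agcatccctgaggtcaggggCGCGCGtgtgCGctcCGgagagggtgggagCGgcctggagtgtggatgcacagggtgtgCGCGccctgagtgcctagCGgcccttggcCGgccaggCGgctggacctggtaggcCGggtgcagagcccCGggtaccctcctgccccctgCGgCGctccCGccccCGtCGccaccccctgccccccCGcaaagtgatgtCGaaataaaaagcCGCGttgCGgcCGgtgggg
GATA2 start 2, chr3:128488531-128488780 on the minus strand: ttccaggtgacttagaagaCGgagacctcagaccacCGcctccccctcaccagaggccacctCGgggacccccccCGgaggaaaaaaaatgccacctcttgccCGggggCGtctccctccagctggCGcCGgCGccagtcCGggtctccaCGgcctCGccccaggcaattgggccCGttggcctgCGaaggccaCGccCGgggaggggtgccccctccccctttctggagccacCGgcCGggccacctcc
GATA6 start 1, chr18:22169339-22169588 on the plus strand: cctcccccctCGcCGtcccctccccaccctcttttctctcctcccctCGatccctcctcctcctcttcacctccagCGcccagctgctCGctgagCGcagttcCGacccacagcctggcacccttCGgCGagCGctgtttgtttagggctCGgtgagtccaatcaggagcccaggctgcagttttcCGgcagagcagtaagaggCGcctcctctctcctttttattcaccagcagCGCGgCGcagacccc

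GATA3 spans positions 8045333 to 8075198 of chromosome 10 (hg38), 29866 bp, and neither end carried a mark within 1 kb, while its interior carried both. Only 3.94% of protein-coding genes had both marks in the span and neither at an annotated end. RefSeq places 6 transcript starts in the gene, all on the plus strand, within 15124 bp of one another. H3K4me3 peaks contained 4 of the 6 starts and H3K27ac peaks contained 2, and both of those 2 lay in H3K4me3 as well. Over all 34961 starts in the table, which holds none on chromosome 8, 50.9% lay in H3K4me3, 39.9% in H3K27ac and 37.5% in both.

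The first GATA3 start, at 8045333, lay in neither mark: the nearest H3K4me3 peak began 3199 bp and the nearest H3K27ac peak 7854 bp downstream. Its 250 bases hold 11 CG dinucleotides, the median over all starts. The second start, at 8049854, lay in an H3K4me3 peak of 2603 bp at 8048532 to 8051134 with a score of 3100 and no H3K27ac peak on it. H3K4me3 peaks of that score without H3K27ac were uncommon in the list, at 767 of 10875 (7.05%). The third start, at 8051236, lay 102 bp beyond the edge of the same peak.

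The fourth start, at 8053641, and the next, at 8054688, shared an H3K4me3 peak of 2523 bp at 8053218 to 8055740, also with a score of 3100. H3K27ac on it was narrow and weak, with a peak of 871 bp at 8053187 to 8054057 and a score of 87.5, so that it contained the fourth start and ended 631 bp short of the next. The fourth start had the highest CG count of the 6, 30 in 250 bases, a number reached by 12.5% of all starts. Acetylation covered 33.3% of that H3K4me3 peak, against a median of 61.6% over the H3K4me3 peaks scoring 3100 or above. Where such peaks carried H3K27ac at all, the median of the highest H3K27ac score on them was 767 (interquartile range 288 to 1923).

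The strongest acetylation in GATA3 lay farther in, at the sixth start. An H3K27ac peak of 1863 bp at 8059626 to 8061488 had a score of 209, the highest of the 4, and the H3K4me3 peak beneath it, 1291 bp at 8059839 to 8061129, had a score of 118, the lowest of the 3. Its sequence is poor in CG, with 4 in 250 bases. The other H3K27ac peaks of the span, of 539 bp and 550 bp, scored 30.2 and 40.0 and lay on no H3K4me3. The part of the span beyond 8062291 had no peak of either mark.

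**Figure D2:**
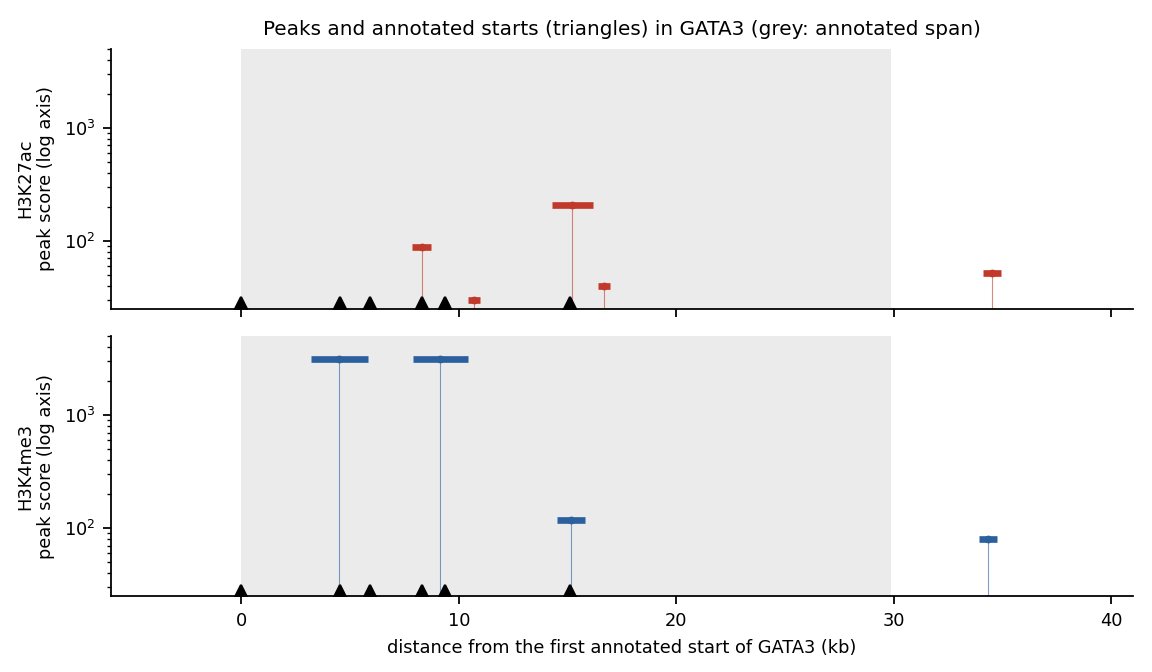
Peaks of H3K27ac (upper) and H3K4me3 (lower) along GATA3, with distance from the first annotated start in kb on the horizontal axis and the authors' score on a log axis; bars show each peak's extent, the grey field the annotated span and triangles the 6 RefSeq starts. The first start is outside every peak, and the tallest H3K27ac bar (209) stands over the sixth start, where H3K4me3 scores only 118.

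GATA3-AS1, a noncoding gene inside the GATA3 span at 8050450 to 8053484, has its ends in the 2 H3K4me3 peaks scoring 3100, and peak lists do not say to which gene a mark belongs. Over its span and the 100 kb on either side GATA3 had 8 H3K27ac and 4 H3K4me3 peaks, where the median protein-coding gene had 10 and 5. Within 100 kb there were 4 further H3K27ac peaks and 1 further H3K4me3 peak, all on the higher-coordinate side. The widest H3K27ac peak among them, 1715 bp at 8130616 to 8132330, had a score of 349, above every H3K27ac peak inside the gene, and lay 55418 bp from it without H3K4me3. The only one with both marks, at 8079443 to 8080263 in the H3K27ac list, lay 4245 bp from the gene with an H3K27ac score of 51.8 and an H3K4me3 score of 79.6. TAF3, which encodes a subunit of the basal transcription factor TFIID, is the nearest protein-coding gene, 28702 bp away; on the other side the nearest, CELF2, lies 2387352 bp away.

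TRPS1 spans positions 115408496 to 115668975 of chromosome 8 (hg38), 260480 bp, with no other protein-coding gene in the 100 kb on either side. Its nearest protein-coding neighbours are EIF3H, 973155 bp above, and CSMD3, 1971557 bp below. H3K27ac covered 83679 bp of the span (32.1%) and H3K4me3 35414 bp (13.6%). In covered length TRPS1 stood at rank 16 for H3K27ac and rank 9 for H3K4me3 among the 19974 protein-coding genes. Among the 2153 genes of 0.5 to 2 times its length, whose median H3K27ac share was 2.07% and median H3K4me3 share 1.5%, its shares stood at percentiles 99.3 and 99.5. By number of peaks it stood lower, at percentile 97.0 for H3K27ac and 87.3 for H3K4me3.

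**Figure D3:**
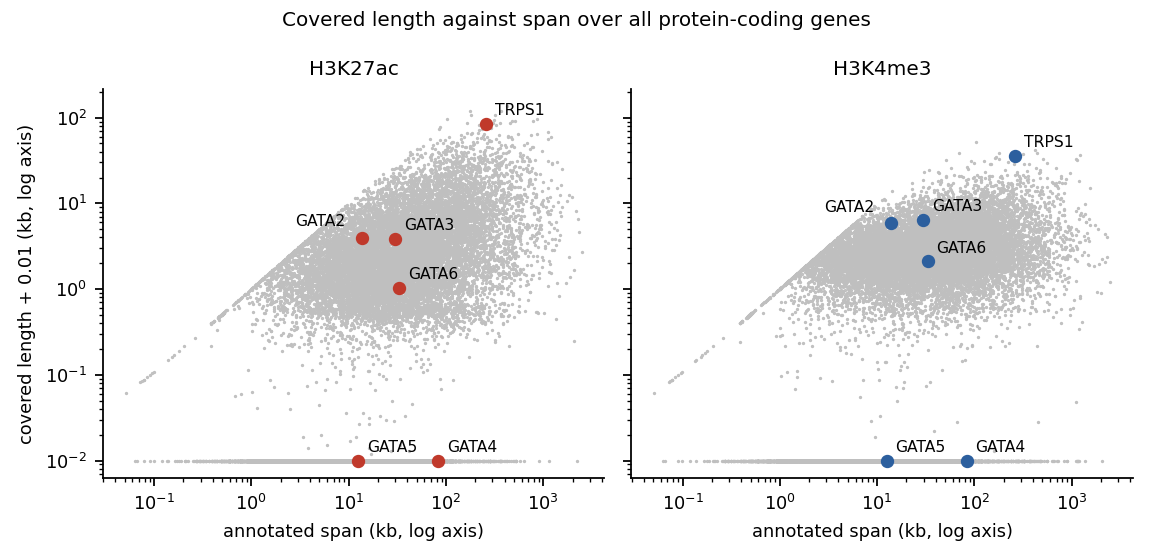
Length covered by H3K27ac (left) and H3K4me3 (right) against annotated span, both in kb on log axes with 0.01 kb added to the covered length; grey points are the 19974 protein-coding genes and coloured points the 6 named genes. TRPS1 lies near the upper edge of the cloud for both marks, and GATA4 and GATA5 lie on the line of genes with no peak.

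Most of this H3K4me3 lay in a single domain at the higher-coordinate end, which from general knowledge is the start of TRPS1, read toward lower coordinates. The H3K4me3 peak at 115645456 to 115673170 was 27715 bp wide and ranked 5 of 32043 by width. The H3K27ac peak over it, at 115644019 to 115673105, was 29087 bp wide and ranked 12 of 72894. Both had a score of 3100. Their upper edges differed by 65 bp and their lower edges by 1437 bp, and H3K27ac covered 99.8% of the H3K4me3 peak. The domain reached beyond the annotated end by 4130 bp in H3K27ac and 4195 bp in H3K4me3, and the rest lay inside the gene. It held 66.4% of the H3K4me3 covering the span but only 29.8% of the H3K27ac.

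The remaining 23 H3K27ac peaks covered 58722 bp of the gene, and the remaining 4 H3K4me3 peaks 11894 bp. Most of the 23 scored under 100, where the H3K27ac list had a median score of 65.0, and 19 of them lay on no H3K4me3. The narrowest was 885 bp wide, against a list median of 865 bp. The strongest was an internal domain of 8777 bp at 115558853 to 115567629 with an H3K27ac score of 924, ranked 534 by width. It contained an H3K4me3 peak of 5720 bp at 115559714 to 115565433 with a score of 1023. The next with both marks, at 115492462 to 115495498 in the H3K27ac list, had an H3K27ac score of 265 and an H3K4me3 score of 539. The other sites with both marks lay nearer the lower-coordinate end, with H3K27ac scores of 80.9 and 76.9 and H3K4me3 scores of 48.9 and 66.3. The starts used here include none on chromosome 8, so these sites cannot be assigned to internal promoters or to other elements. TRPS1-AS1, a noncoding gene inside the span, had neither mark.

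Every H3K4me3 peak in TRPS1 therefore lay on H3K27ac, 5 of 5, where 71.0% of the H3K4me3 list did. Most of its H3K27ac peaks lay on no H3K4me3, as in the H3K27ac list as a whole. The share with H3K4me3 was 5 of 24 (20.8%), against 34.8% of the H3K27ac list. These 24 are neighbouring peaks of the same gene, chosen on these same lists, and cannot be treated as independent. The difference between the shares is therefore given without an interval and was not tested. The H3K27ac list's own share runs with the score, from 10.2% of peaks under 50 to 23.3% from 50 to 100 and 56.0% from 100 to 1000. In TRPS1 the counts over the same ranges were 0 of 6, 2 of 11 and 2 of 6, and the single peak above 1000 had H3K4me3. The H3K27ac peaks without H3K4me3 had widths of 885 to 4327 bp (median 1738 bp) and scores of 31.2 to 177 (median 66.6). Those with H3K4me3 had widths of 3037 to 29087 bp (median 3138 bp) and scores of 76.9 to 3100 (median 265).

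H3K27ac peaks lay in every part of TRPS1. Counted by midpoints in equal parts of the span from the lower end, H3K27ac peaks numbered 5, 10 and 9, and they covered 12852, 24308 and 46519 bp. Without the start domain the last of these was 21562 bp. H3K4me3 peaks numbered 3, 1 and 1 and covered 5687, 6207 and 23520 bp. The median gap between neighbouring H3K27ac peaks was 5966 bp, and the longest was 30915 bp, from 115453067 to 115483981.

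**Figure D4:**
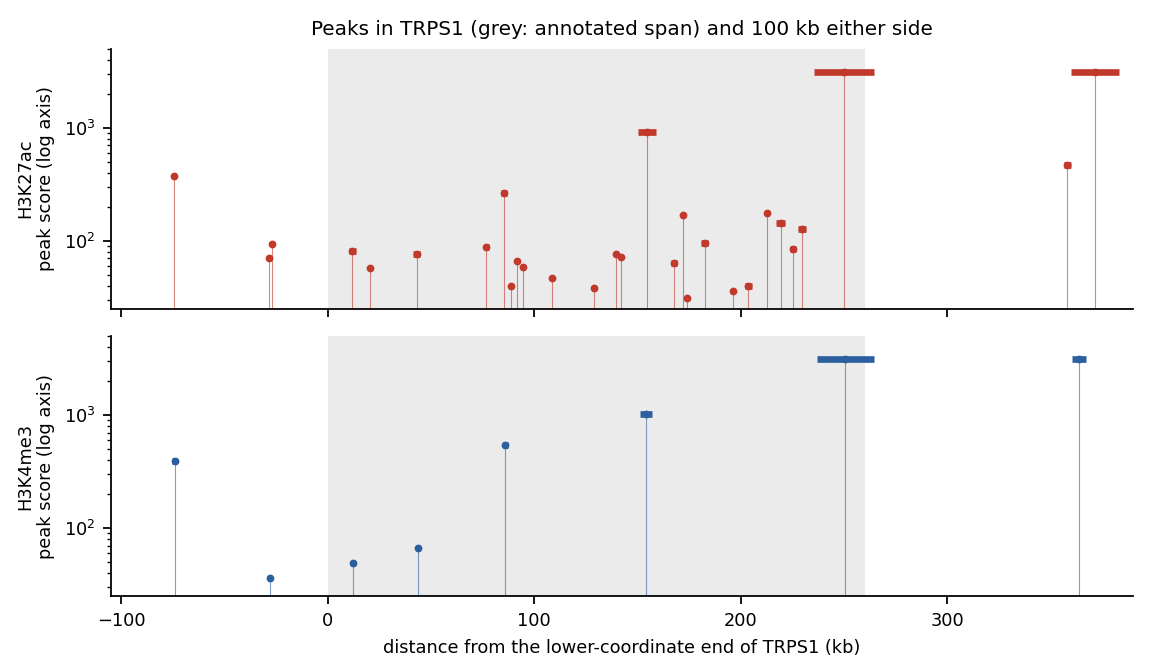
Peaks of H3K27ac (upper) and H3K4me3 (lower) along TRPS1 and the 100 kb on either side, with distance from the lower-coordinate end in kb on the horizontal axis and the authors' score on a log axis; bars show each peak's extent and the grey field the annotated span. H3K27ac peaks run through the gene, mostly under a score of 100. Within the grey field the highest H3K4me3 scores are 3100, in the domain at its right-hand edge, and 1023, and the other H3K4me3 peaks there score 539 or less.

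Outside TRPS1 a second wide domain stood on the side of its start. An H3K27ac peak of 23163 bp at 115768681 to 115791843, ranked 19 by width and with a score of 3100, began 99706 bp from the gene, just inside the 100 kb examined. An H3K4me3 peak of 6799 bp at 115768831 to 115775629, also at 3100, lay within it. A second H3K4me3 peak of 7871 bp, at 115775645 to 115783515 and again at 3100, began 106670 bp from the gene and is thus just outside the window. H3K4me3 covered 78.1% of the wide acetylated peak. No annotated gene end lay within 1 kb of it. On the opposite side a site at 115332900 to 115335130 in the H3K27ac list, 73366 bp from the gene, had scores of 374 for H3K27ac and 393 for H3K4me3.

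Both TRPS1 and GATA4 lie on chromosome 8, where scores ran higher than over all chromosomes. The median H3K27ac score was 94.1 on chromosome 8 and 65.0 over all, and the median H3K4me3 score 794 and 590. Peaks at 3100 or above made up 7.81% of H3K27ac on chromosome 8 and 3.71% over all, while 55.0% of the chromosome's protein-coding genes had both marks at an end, against 57.6% over all chromosomes. Copy number was not measured here, and its part in the values of TRPS1 was not tested.

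GATA2 spans positions 128479422 to 128493201 of chromosome 3 (hg38), 13780 bp, and its marks sat on the internal start alone. The first start, at 128493201 on the minus strand, lay 2703 bp from the nearest H3K27ac peak and 2087 bp from the nearest H3K4me3 peak, although its 250 bases hold 24 CG dinucleotides. The second start, at 128488530 and 4671 bp farther along, lay in both marks with 18. The H3K4me3 peak there was 5931 bp wide, at 128485184 to 128491114, with a score of 3100, and covered 43.0% of the span. H3K27ac lay on it as a peak of 2472 bp at 128488027 to 128490498 with a score of 869 and a neighbouring peak of 1503 bp with a score of 87.5; together they covered 67.0% of the H3K4me3 peak. Of the RefSeq starts of GATA2, GATA3 and GATA6 this one lay in the peak with the highest H3K27ac score. GATA2-AS1, a noncoding gene that begins in the same region at 128489203, shares the H3K4me3 peak and the stronger H3K27ac peak. In the flanks of GATA2 there were 4 H3K27ac peaks, with scores of 30.5 to 69.0, and 3 H3K4me3 peaks, with scores of 130 to 475, and no peak of either mark lay on one of the other. The nearest protein-coding genes were DNAJB8, 12532 bp below and without either mark, and RPN1, an oligosaccharyltransferase gene, 126768 bp above with both at its ends.

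GATA6 spans positions 22169589 to 22202528 of chromosome 18 (hg38), 32940 bp, and was the only GATA gene of the 5 with both marks at an annotated end. Its H3K4me3 peak, 4717 bp at 22166962 to 22171678, had a score of 3100. The H3K27ac peak over the start was 1247 bp wide, at 22169373 to 22170619, with a score of 109, and covered 26.4% of the H3K4me3 peak. GATA6-AS1, a noncoding gene 621 bp below GATA6, lay in the same H3K4me3 peak. The rest of GATA6 had no peak. Within 100 kb there were 4 more H3K27ac peaks, of which the highest, at 22084381 to 22086106, had a score of 692, and no further H3K4me3 peak. The nearest protein-coding genes were MIB1, a ubiquitin ligase gene of the Notch pathway, 298636 bp below with both marks at its ends, and CTAGE1, 211071 bp above with neither.

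GATA4 and GATA5 had neither mark in the span nor within 1 kb of it. GATA4 spans 83068 bp at 11676935 to 11760002 of chromosome 8, a length at which 13.0% of genes of 0.5 to 2 times that length had no H3K27ac peak and 12.4% no H3K4me3 peak. Its nearest H3K4me3 peak lay 8826 bp away at the lower-coordinate end of NEIL2, a DNA glycosylase gene, with a score of 2152, and its nearest H3K27ac peak lay 39557 bp away within FDFT1, the squalene synthase gene. No peak of either mark lay in the 100 kb below it, and BLK, a lymphocyte kinase gene 112336 bp below, had none either. GATA5 spans 12499 bp at 62463497 to 62475995 of chromosome 20, where 34.1% of genes of like length had no H3K27ac peak and 29.2% no H3K4me3 peak. Its nearest H3K27ac peak, 5581 bp away, had a score of 31.4, and its nearest H3K4me3 peak lay 34599 bp away at RBBP8NL. Above GATA5 the nearest protein-coding gene was SLCO4A1, a transporter gene 166508 bp away with both marks at its ends.

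Unlike TRPS1, GATA4 and GATA5 have other protein-coding genes within 100 kb. GATA5 had 13 H3K27ac and 8 H3K4me3 peaks in its flanks, of which 6 and 7 lay within 1 kb of an end of another annotated gene, such as LAMA5, a laminin chain gene, RPS21, a ribosomal protein gene, and CABLES2. The widest was an H3K27ac peak of 7344 bp at 62373809 to 62381152 with a score of 2306. GATA4 had 12 H3K27ac and 6 H3K4me3 peaks, all on the higher-coordinate side, of which 1 and 3 lay within 1 kb of an end of another annotated gene. On that side FDFT1 and CTSB, the gene of the protease cathepsin B, lie wholly or in part within the 100 kb examined. An H3K4me3 peak of 8497 bp at 11800555 to 11809051, with a score of 3100, was the widest of these. TRPS1 had 5 and 3 peaks in its flanks, where no other gene is annotated. Over the span and flanks together, TRPS1 had 29 H3K27ac and 8 H3K4me3 peaks, where the median protein-coding gene had 10 and 5.

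**Figure D5:**
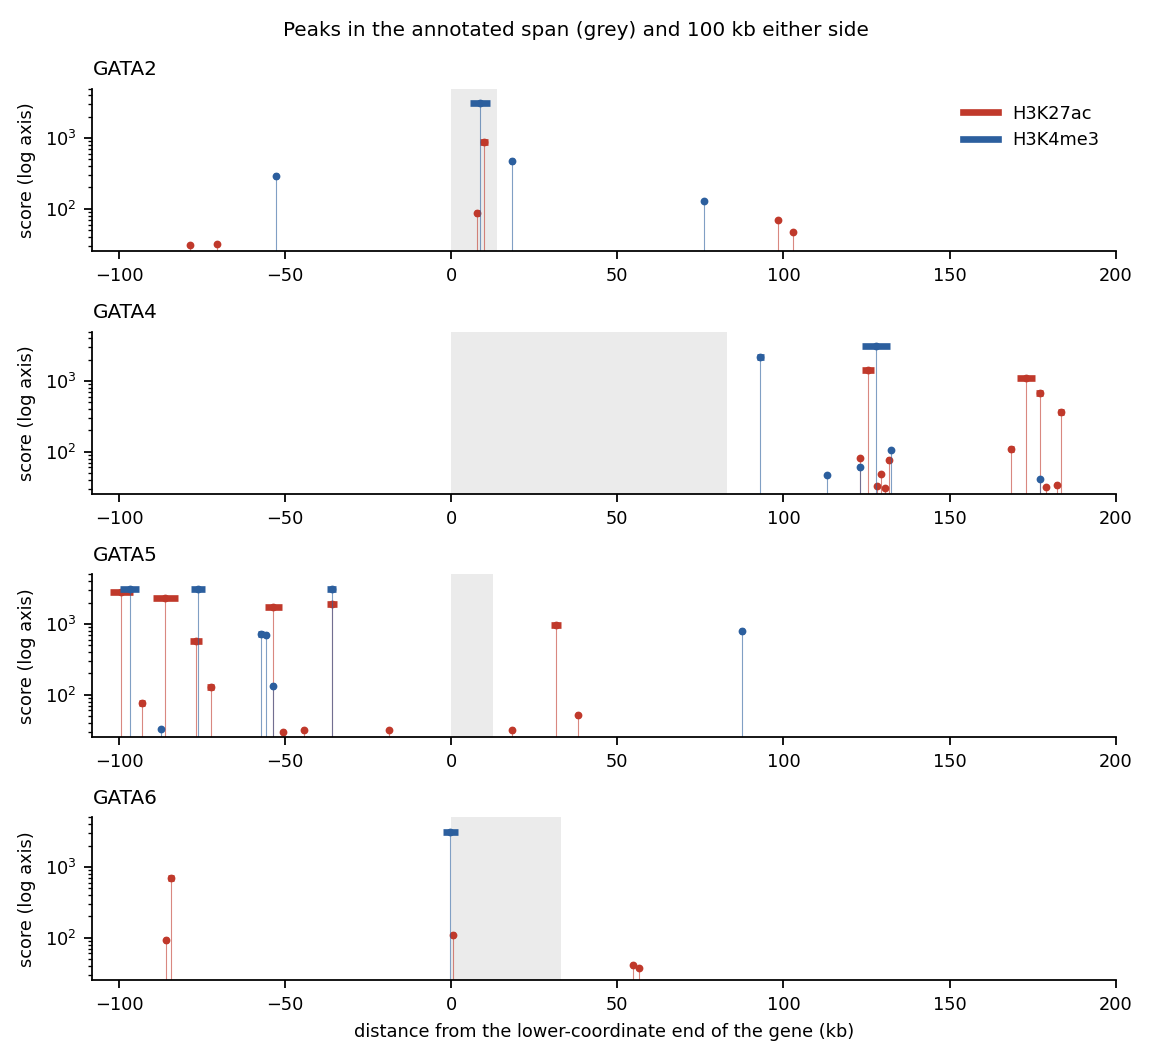
H3K27ac (red) and H3K4me3 (blue) peaks at GATA2, GATA4, GATA5 and GATA6, from top to bottom, with distance from each gene's lower-coordinate end in kb and the authors' score on a log axis; bars show each peak's extent and the grey field the annotated span. Peaks stand within the grey field at GATA2 and at the left edge of it at GATA6, and the fields of GATA4 and GATA5 are empty.

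Taken side by side, TRPS1 differed from its marked paralogs in the amount of acetylation relative to methylation. The length covered by H3K27ac was 2.36 times that covered by H3K4me3 in TRPS1, against 0.670 in GATA2, 0.596 in GATA3 and 0.493 in GATA6. Among the 13289 protein-coding genes with both marks in the span, the median ratio was 0.925, and TRPS1 stood at percentile 88.2 and the 3 GATA genes at percentiles 32.5, 26.6 and 18.5. Longer genes had higher ratios, with a median of 1.52 over the 1892 genes of 0.5 to 2 times the length of TRPS1. Per 100 kb of span TRPS1 had 9.21 H3K27ac peaks, fewer than GATA2 with 14.5 and GATA3 with 13.4. Its covered share in H3K27ac, 32.1%, was above 28.8% in GATA2, 12.8% in GATA3 and 3.13% in GATA6. For H3K4me3 the share of TRPS1, 13.6%, was below 43.0% in GATA2 and 21.5% in GATA3 and above 6.34% in GATA6.

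All 4 marked genes had H3K4me3 peaks scoring 3100, and these differed in the H3K27ac on them. The highest H3K27ac score on such a peak was 3100 in TRPS1, 869 in GATA2, 109 in GATA6 and 87.5 in GATA3, whose other such peak had none. Among the 10875 H3K4me3 peaks of the list that scored 3100 or above, these stood at percentiles 92.5, 56.9, 16.1 and 13.9, and the peak without H3K27ac at 3.53. These scores come from 1 library per mark and were not adjusted for the width of the H3K4me3 peak. That width was 27715 bp in TRPS1 and 2523 to 5931 bp in the GATA genes.

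Counted at annotated ends, 2 of the 6 genes, TRPS1 and GATA6, had both marks and the other 4 had neither, against 57.6% and 27.3% of protein-coding genes. Counted at RefSeq starts for GATA2, GATA3 and GATA6 and at annotated ends for TRPS1, GATA4 and GATA5, the genes with both were 4 of 6, GATA2 and GATA3 being added. The share of all genes under this mixed rule is not given here, so the 4 cannot be set against the 57.6%. Over all 34961 starts, taken singly, 37.5% lay in both marks. Of 9 other genes with a GATA-type zinc finger, 7 had both marks at an end. These were GATAD1, GATAD2A, GATAD2B, MTA1, MTA2, MTA3 and RERE, most of which encode subunits of the NuRD repressor complex. GATA1, the erythroid member of the family, had no peak of either mark, and ZGLP1 had H3K27ac only, with a score of 34.1, a state found in 3.16% of protein-coding genes.

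Of 10 chromatin proteins of the NuRD and CoREST type that TRPS1 is known to work with, all had both marks at an end, as 57.6% of protein-coding genes did, CHD4, HDAC1 and KDM1A among them. CTBP2, a corepressor gene, was covered by 119467 bp of H3K27ac and 32690 bp of H3K4me3, the most of the 10, whose medians were 5016 bp and 3699.5 bp. Over all protein-coding genes the medians were 1335.5 bp and 1969 bp. Of 5 Ikaros family genes, 3 had both marks at an end (IKZF2, IKZF4 and IKZF5), a share near the 57.6% of all protein-coding genes. At their ends IKZF1 and IKZF3 had H3K4me3 only, as 11.9% of protein-coding genes did. Inside their spans they had 2 and 3 H3K27ac peaks, with highest scores of 58.9 and 95.5.

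Of 14 cofactors and partners of GATA factors, 7 had both marks at an end, 2 had H3K4me3 only and 5 had neither at an end but a peak in the span. Over all protein-coding genes 57.6% had both, 11.9% H3K4me3 only and 27.3% neither. LMO4, LDB1, TFAP2A, TFAP2C and SMAD1 had H3K27ac scores of 1681 to 3100 at an end. FOXA1, the pioneer factor that works with GATA3 and the estrogen receptor in luminal cells, had an H3K4me3 score of 3100 and an H3K27ac score of 44.8. ESR1, the estrogen receptor gene, had 18 H3K27ac and 5 H3K4me3 peaks inside a span of 472948 bp and none at its ends. RUNX1, another regulator of breast epithelium, had 19 and 5 inside 261502 bp, close to TRPS1 in length, and was covered by 49986 bp of H3K27ac and 21250 bp of H3K4me3. LMO2, TAL1, TBX5 and NKX2-5 had no H3K27ac peak in the span. ZFPM1 had 10 H3K27ac peaks in its span and ZFPM2 had 4, with highest scores of 407 and 317.

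By the number of peaks and the covered length of both marks, 4 values compared on a log2 scale with 1 added, the genes of like length most similar to TRPS1 included ARHGAP29, SPIDR, WWTR1 and VGLL4, at Euclidean distances of 0.765 to 0.990 out of 2152 genes compared. ARHGAP29, a gene of a GTPase-activating protein, had 25 H3K27ac peaks covering 51302 bp and 5 H3K4me3 peaks covering 28984 bp. None of these 4 had a peak as wide as that at the TRPS1 start: their widest were 16927 bp for H3K27ac and 18137 bp for H3K4me3, both in ARHGAP29. The 5 nearest to GATA3, out of 7045, were CFAP97, COL9A3, UNKL, YWHAE and MTMR4, at distances of 0.227 to 0.320, each with 3 H3K4me3 peaks and with 4 or 5 H3K27ac peaks. These likenesses rest on 2 libraries and describe amounts of marked chromatin only.

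The letters before the starts were also searched on both strands for AGATAA, a sequence GATA factors bind, with its reverse complement TTATCT, and for CCAAT or ATTGG and TATAAA or TTTATA. None of the 9 starts of GATA2, GATA3 and GATA6 had AGATAA or TTATCT in these 250 bases, which 9.18% of all starts had. CCAAT or ATTGG occurred before 4 of the 9 starts and before 32.0% of all starts, with 2 matches at the fourth start of GATA3. TATAAA or TTTATA occurred before the second start of GATA3 alone and before 10.7% of all starts. A match or its absence in these windows says nothing of binding. Over all starts, the median CG count was 22 for those in both marks, 20 for those in H3K4me3 only, 4 for those in H3K27ac only and 3 for those in neither, so the sixth GATA3 start, with 4 and both marks, and the first GATA2 start, with 24 and neither, lay away from the medians of their states.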

How the data were processed

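Chromatin of HCC1599 was cross-linked, sheared by sonication and micrococcal nuclease and immunoprecipitated, per the labels' protocols. The submitters' processing notes name Bowtie2, MACS 1.4 and hg38; parameters are not given in the sources used here. The authors deposited 1 peak list per mark with a score for each peak, whose unit is not stated. Peaks of 1 library each were used as deposited, with positions counted from 1. Gene spans, and 34961 transcript starts with their sequences, came from RefSeq tables of GRCh38.p14, the same build family. The starts used include none on chromosome 8, where TRPS1 and GATA4 lie, and none of GATA5. A peak belonged to a window that it overlapped by at least 1 bp. An end was marked if a peak overlapped the 1 kb on either side of it. Motif searches and the counts of CG dinucleotides used the 250 bases before each start. Percentiles count ties by their midpoint and describe these libraries. Digestion by micrococcal nuclease and the joining of neighbouring peaks by the caller affect widths and numbers of peaks.

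The members and gene lists were chosen with earlier results of these data known. Genes were named by rule: the 6 members with their peaks, peaks among the 3 widest of each mark in their flanks (given in part), overlapping and adjacent genes, the 5 genes most alike to TRPS1 and to GATA3, and listed genes, of which some are not reported here; FDFT1, CTSB, LAMA5, RPS21 and CABLES2 were named after their values were seen. Alternatives were a score of at least 100, merging of peaks less than 500 bp apart, assignment by midpoint, equal list lengths, flanks of 50 kb, end windows of 500 bp and 2.5 kb, RefSeq starts, and 50% of a peak covered. Python 3.11.15, numpy 2.4.6, pandas 2.3.3, scipy 1.17.1, matplotlib 3.10.9 and bedtools 2.31.1 were used. Window counts were tested on simulated data, and the counts in the spans of 19974 genes differed from those of bedtools in 0 genes.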

Additional observations from a re-analysis of the deposited data

How the results depend on the processing

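Counts of peaks depended on the score most. With a score of at least 100, H3K27ac peaks numbered 7 in the TRPS1 span and 10 with its flanks, 1 and 2 at GATA3, and 15 in the spans and flanks of GATA2, GATA4, GATA5 and GATA6; H3K4me3 peaks numbered 3 in the TRPS1 span, equal to the 3 of GATA3, and 5 with its flanks; and 3 H3K27ac peaks of TRPS1 and 1 of GATA3 lay on H3K4me3. With the H3K27ac list cut to the length of the H3K4me3 list, the H3K27ac counts were 10 and 14 for TRPS1, 2 and 3 for GATA3, and 17 for the other 4 genes with flanks. With flanks of 50 kb, GATA3 had 5 H3K27ac peaks and the other 4 genes had 17 H3K27ac and 9 H3K4me3 peaks. By midpoint, 1 H3K4me3 peak lay in the spans of those 4, since the midpoint of the GATA6 peak lies outside the gene. With RefSeq starts for GATA2, GATA3 and GATA6 and annotated ends for the other members, 4 members had both marks. Of 63 alternative values for 15 results, the other 44 were within 1.5 times the reported count. The 44 include the H3K4me3 counts with the H3K27ac list cut, which that setting could not change. Depth is unknown, and no replicate could be left out. No paired analysis was possible because each mark had 1 library.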

Other observations

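LINC00536, a noncoding gene that begins 281536 bp beyond the higher-coordinate end of TRPS1 and outside the window examined, held 16 H3K27ac peaks covering 69129 bp and 4 H3K4me3 peaks covering 8066 bp. Its highest H3K27ac score was 3100 and its highest H3K4me3 score 819. It had H3K27ac at an annotated end, with a score of 1318, and no H3K4me3 there.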
